A study of Drosophila melanogaster with 3 samples.

Results

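Deep intronic Dip3 peaks are the sites of Dip3 recovery that lie inside protein-coding genes but away from any annotated start of a protein-coding transcript and from any exon. They were chosen by position alone, from the set of peaks on dm6 that passed the irreproducible discovery rate (IDR), which keeps regions that rank alike across replicates. A peak was kept when its summit lay more than 2000 bp from every protein-coding start, inside a protein-coding gene body and in no annotated exon. In the whole set 864 peaks were more than 2000 bp from a start, 595 of these were inside a gene body, and 569 of those were in no exon. The set thus divides into 569 deep intronic peaks (15.2%, 95% interval 14.1 to 16.4%) and 3172 others. Of these 569 peaks, 549 lay inside 1 gene, 17 inside 2 overlapping genes and 3 inside 3, and together they had 367 host genes. Of the 569 peaks, 464 had the same width of 390 bp and 16 overlapped another one, so that they make up 561 separate stretches of DNA.

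The data are peak lists of chromatin immunoprecipitation followed by sequencing in whole Drosophila melanogaster embryos, 0 to 24 h old and of mixed sex. All embryos came from a transgenic line that stably expresses Dip3 with GFP at its C-terminus, and an antibody against GFP pulled the chromatin down after sonication to 200 to 800 bp. There were 3 biological replicates of this 1 group, so no condition could be compared with another, and the lists do not give sequencing depth, which is unknown. Whole embryos of all these ages were pooled, so the cells in which a site was occupied cannot be told apart.

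Dip3, the product of the gene Dlip3, belongs to a family of proteins with an N-terminal MADF domain, which can contact DNA, and a C-terminal BESS domain, which mediates contacts between proteins. It is known as a partner of the Rel-family factor Dorsal. Introns of fly genes, above all long first introns, often hold enhancers, the stretches of DNA at which transcription factors act on a promoter from a distance, and they also hold starts of non-coding RNAs. A peak in an intron marks where tagged Dip3 was recovered and says nothing by itself of the gene it acts on.

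The sequences below are the central 81 bases of 8 of the 9 strongest peaks, shown because the base composition at the summits is described below. The third strongest, in Hr3, is not shown, and its GC content from 50 bp before to 50 bp after the summit was 20.8%. All are given 5′ to 3′ on the plus strand of dm6, with the summit in the middle, and capitals mark runs of at least 6 A or T bases.
CG32486 (chr3L:3060757-3060837): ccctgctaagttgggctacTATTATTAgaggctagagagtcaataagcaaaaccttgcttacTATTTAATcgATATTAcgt
Tlk (chrX:3742197-3742277): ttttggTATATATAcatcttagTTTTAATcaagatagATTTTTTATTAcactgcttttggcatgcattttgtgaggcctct
Raf (chrX:2297688-2297768): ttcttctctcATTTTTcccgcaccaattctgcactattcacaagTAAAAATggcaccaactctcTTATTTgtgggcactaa
mnb (chrX:17880432-17880512): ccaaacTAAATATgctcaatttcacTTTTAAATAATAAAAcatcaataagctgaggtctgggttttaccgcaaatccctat
CG34417 (chrX:6549840-6549920): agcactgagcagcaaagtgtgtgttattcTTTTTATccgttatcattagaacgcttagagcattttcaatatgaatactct
CHES-1-like (chrX:7700374-7700454): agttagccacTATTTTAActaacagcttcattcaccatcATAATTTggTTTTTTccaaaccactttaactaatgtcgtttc
Mi-2 and Su(Tpl) (chr3L:19903256-19903336): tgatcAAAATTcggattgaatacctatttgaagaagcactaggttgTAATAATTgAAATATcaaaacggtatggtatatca
Evi5 (chrX:11447159-11447239): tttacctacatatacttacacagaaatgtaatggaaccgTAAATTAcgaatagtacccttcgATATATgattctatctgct
Of the 8 windows shown, those at Tlk and at Mi-2 were the poorest in G and C, with 29.6% each, and the one at Raf was the richest, with 39.5%. For contrast, these are the stretches of the same length centred 500 bp to the left and to the right of the CG32486 summit, where the GC content was 45.7% and 51.9%, against 37.0% at the summit.
CG32486 left flank (chr3L:3060257-3060337): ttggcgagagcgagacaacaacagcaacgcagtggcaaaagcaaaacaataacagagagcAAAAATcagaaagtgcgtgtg
CG32486 right flank (chr3L:3061257-3061337): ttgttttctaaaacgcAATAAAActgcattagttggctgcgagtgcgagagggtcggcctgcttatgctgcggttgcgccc

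The strongest deep intronic peak lay in the first intron of CG32486 (3L, 3060630 to 3060964). Its signal, the value that the authors' peak caller gave it in the calling on pooled replicates, was 1070, and it ranked 27 in the whole IDR set. It ranked 26, 38 and 31 in the lists of replicates 1, 2 and 3, so all 3 placed it alike. The next lay in the first intron of Tlk, which encodes Tousled-like kinase, a kinase of chromatin assembly (X, 3742044 to 3742384, signal 968), with ranks of 52, 45 and 23. A peak in the first intron of the nuclear receptor gene Hr3 followed, with a signal of 747 and ranks of 87, 63 and 72, and it also lay inside the overlapping genes CG12912 and CG46321.

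Further named peaks lay in genes for kinases and chromatin proteins. Raf, the kinase between Ras and MEK, had a peak at X, 2297572 to 2297857, with a signal of 735 and ranks of 64, 95 and 63, and a weaker one at X, 2300591 to 2300822, with a signal of 403 and ranks of 289, 381 and 304. The first intron of mnb, which encodes the DYRK-family kinase Minibrain, held a peak (X, 17880297 to 17880609, signal 642) that ranked 112, 83 and 87. The summit in the shared intron of Mi-2, the ATPase of the NuRD complex, and Su(Tpl), an ELL elongation factor, ranked 166, 250 and 149 (3L, 19903158 to 19903414, signal 495). Trithorax (trx), a histone H3 lysine methyltransferase, held a peak of signal 476 (3R, 14283727 to 14284020) with ranks of 225, 130 and 217. The last was highest in replicate 2, whereas the Mi-2 peak was highest in replicate 3, so no replicate led throughout.

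By the rule for named peaks, which takes the 25 with the highest signal among those present in the top list of every replicate (as many of its strongest regions as the IDR set has peaks), the remaining hosts were CG34417, CHES-1-like, Evi5, Hr4 with 2 peaks, CG12769, Pits, lili, Gug, Dad, eff, Btk, Roc2, upSET, mbl, CG33158 with aos, and gpp. They include genes for a forkhead-box factor (CHES-1-like), the corepressor Atrophin (Gug), the inhibitory Smad of the Dpp pathway (Dad), a ubiquitin-conjugating enzyme (eff), the splicing regulator Muscleblind (mbl), the secreted inhibitor of the EGF receptor Argos (aos) and the H3K79 methyltransferase Grappa (gpp). None of the 25 ranked worse than 549 in any replicate, a rank that gpp had in replicate 3. Of the 25, 10 were on the X chromosome and 18 in a first intron, and for 20 the nearest protein-coding start belonged to the host gene. The peak of CG12769 ranked 364 in replicate 1, 163 in replicate 2 and 129 in replicate 3.

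**Figure D1:**
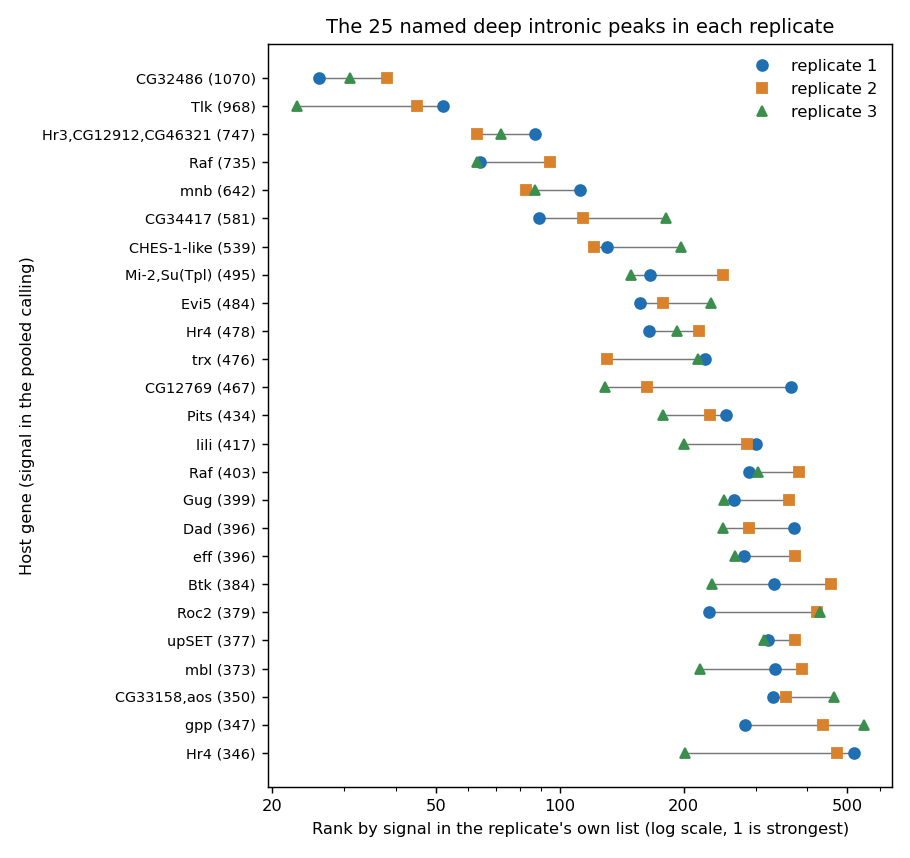
Ranks by signal of the 25 named deep intronic peaks in each replicate's own list, on a log scale on which 1 is the strongest region, with 1 row per peak, its host gene and its signal in the pooled calling. The CG32486 peak sits at ranks 26, 38 and 31, and no peak ranks worse than 549 in any replicate.

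Over all 569 peaks the signal ran from 85.1 to 1070 with a median of 128 and quartiles of 102 and 185. Start-proximal intronic peaks, over 500 and up to 2000 bp from a start, had a median of 136 (526 peaks), intergenic peaks more than 2000 bp from a start had 121 (236 peaks) and promoter peaks, within 500 bp of a start, had 150 (2147 peaks). Of the deep intronic peaks 99 (17.4%) were in the strongest 25% of the IDR set, against 28.3% of the promoter peaks. Ranks within a replicate do not depend on the scale of its list. The median deep intronic peak stood at 6.15%, 6.75% and 7.98% of the way down the whole lists of replicates 1, 2 and 3, where 0% is the strongest region. The median promoter peak stood at 5.16%, 5.54% and 5.43%. For start-proximal intronic peaks the medians were 5.345%, 6.087% and 7.235%. Those of distal intergenic peaks were 6.665%, 6.51% and 9.52%, so deep intronic peaks did not rank lowest in replicates 1 and 3. These medians cover only peaks that overlap a region of the list. Such peaks numbered 544, 568 and 565 of the 569 deep intronic and 1927, 2121 and 2131 of the 2147 promoter peaks. Among these matched peaks, deep intronic ones ranked lower than promoter ones in 3 of 3 replicates, by 1.59 ± 0.845 percentage points (SD, n = 3). The two-sided exact sign-flip permutation p was 0.25, the smallest that 3 replicates allow.

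The distance of 2000 bp is a threshold on a continuous measure. Just inside it were peaks in Shrm (2001 bp from the nearest start, signal 154), Tet (2004 bp, 96.6) and fru (2018 bp, 176), and just outside were peaks in Atg1 with CG42709 (1989 bp, 118), NFAT (1968 bp, 231) and CHES-1-like (1968 bp, 197). The median distance was 4986 bp. A total of 284 peaks were more than 5000 bp from any start and 110 more than 10000 bp. The farthest was in Sema1a, a semaphorin gene of axon guidance, at 61659 bp (2L, 8610844 to 8611233, signal 114), followed by one in the homeobox gene hth at 49882 bp (3R, 10564199 to 10564588, signal 121).

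Strong regions were less often deep intronic than weak ones. Among the top regions of each replicate the share of deep intronic summits was 18.1%, 17.8% and 12.8% in replicates 1, 2 and 3. In the weaker 50% of the same lists it was 30.2%, 30.3% and 27.0%. The strong and the weak shares did not overlap, and their difference was −12.9 ± 1.12 percentage points (mean and SD, n = 3, two-sided exact sign-flip permutation p = 0.25, the smallest possible). Replicate 3 had the lowest share in both parts of its list, and it also had the most regions with q up to 0.01, 8812 against 2480 and 3226 in replicates 1 and 2; the part of this in the lower share was not tested. In the pooled calling, 15.2% of IDR peaks and 29.4% of the 11591 weak regions of the lower 50% that overlap no IDR peak were deep intronic, while such sequence makes up 28.7% of the genome (39.5 Mb).

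**Figure D2:**
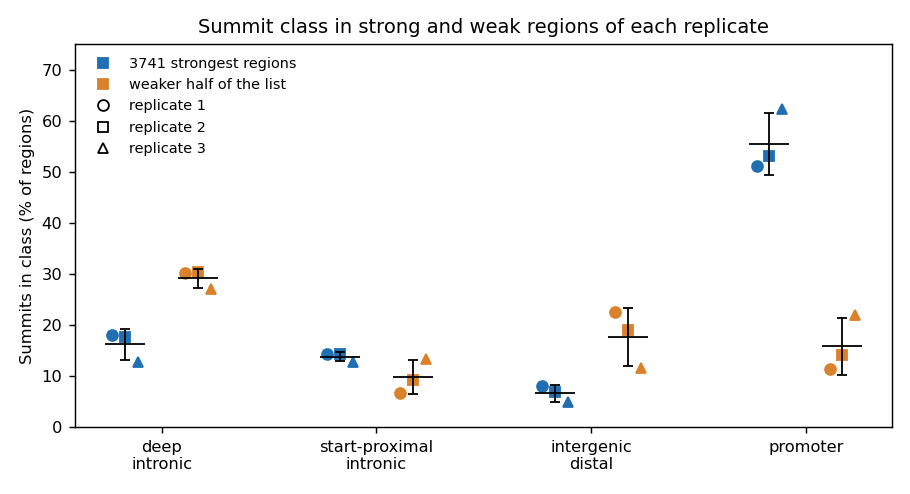
Share of summits in 4 classes of position among the top regions (blue) and in the weaker 50% of the list (orange) of each replicate, in percent of regions, with symbols for replicates and black bars for mean and SD (n = 3). Deep intronic summits make up 18.1%, 17.8% and 12.8% of the strong regions and between 27.0% and 30.3% of the weak ones, and promoter summits run the other way.

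Per length of available sequence, deep intronic peaks were sparse. There were 14.4 per Mb of deep intronic sequence, against 52.9 in start-proximal introns, 139.8 at promoters and 7.52 in distal intergenic sequence. Their frequency thus lay between that of the introns next to a start and that of intergenic DNA.

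The top lists held 481 (84.5%), 509 (89.5%) and 393 (69.1%) of the 569 peaks in replicates 1, 2 and 3. They held 79.3%, 83.8% and 82.4% of the promoter peaks, a lower share than of deep intronic peaks in replicates 1 and 2 and a higher one in replicate 3. All 3 top lists held 309 of the deep intronic peaks (54.3%, exact Clopper-Pearson 95% interval 50.1 to 58.5%), against 58.7% of all IDR peaks. The IDR set was itself made from these replicates, so these shares describe the set and are no independent check. For promoter peaks the share in all 3 top lists was 60.9%, a difference of −6.62 percentage points (Newcombe 95% interval −11.2 to −2.06). Start-proximal intronic peaks had 57.4% (difference −3.11, interval −8.95 to 2.77) and distal intergenic peaks 50.4% (difference 3.88, interval −3.66 to 11.4), and both intervals include 0. All intervals on shares here and below cover counting error only.

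Most of the peaks missing from a top list were missing from that of replicate 3. Of the 436 deep intronic peaks that the top lists of replicates 1 and 2 both held, 309 (70.9%) were also in that of replicate 3, and 127 were not. Promoter peaks kept 85.4% in the same count, a difference of −14.6 percentage points (interval −19.3 to −10.1). Start-proximal intronic peaks kept 77.4% (difference −6.56, interval −12.4 to −0.569). Distal intergenic peaks kept 66.9% (difference 4.02, interval −3.85 to 12.3). Only 10 deep intronic peaks were in the top list of replicate 3 alone, and 5 were in no top list. Counting any rank in the whole lists, 539 (94.7%) were listed by all replicates. The presence in all 3 top lists went with the pooled signal. It was 98.0% for the 99 peaks in the strongest 25% of the IDR set, 85.9% for the next 142, 45.3% for the next 159 and 10.7% for the 169 in the weakest 25%. Promoter peaks had 95.9%, 82.3%, 42.9% and 10.4% at these levels, each within the 95% interval of the deep intronic share. The single lists differed more: in the weakest 25% the top list of replicate 1 held 67.5% of deep intronic and 47.4% of promoter peaks, while that of replicate 3 held 35.5% and 54.1%.

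The summits were rich in A and T. The mean GC content from 50 bp before to 50 bp after the summit was 34.2% ± 7.82 (SD over 569 peaks), against 41.8% in equally long windows 500 bp away on both sides, and it was lower than in the flanks for 444 peaks (78.0%). In the replicates' own deep intronic top regions the GC content was 35.8%, 34.4% and 35.7% at the summits and 41.7%, 41.7% and 41.2% in the flanks, a difference of −6.23 ± 0.979 percentage points (n = 3, lower in 3 of 3 replicates, two-sided exact sign-flip permutation p = 0.25, the smallest possible). Of the 25 named peaks, 24 lay below the mean of the flanks. The dip was narrow. In bins of 25 bp the mean GC content was lowest 12.5 bp to the left of the summit, at 33.0%. Beyond 750 bp it was 40.2%, and it stayed below the midpoint of these values only between −75 and 50 bp. In between it rose above the distant level, to 44.2% at 287.5 bp to the left and 44.5% at 362.5 bp to the right. The size of the dip thus depends on the flank. The difference in the replicates was −8.10 percentage points with flanks at 300 bp and −4.985 with flanks at 1000 bp.

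The dip was shared by the other classes of peaks and was not seen in weak regions. Weak deep intronic regions had 42.3% at their summits and 40.9% in their flanks. Promoter peaks had 37.4% and 45.9%, start-proximal intronic peaks 34.7% and 42.2%, and distal intergenic peaks 35.3% and 40.7%. Runs of at least 6 A or T bases, marked by capitals in the sequences above, covered 23.9% of the bases at deep intronic summits, against 15.8% in their flanks, 21.6% at promoter summits and 15.8% at weak deep intronic summits. Repeat-masked bases were about as frequent at the summits (19.4%) as in the flanks (19.5%), and 2 peaks overlapped an annotated transposable element.

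**Figure D3:**
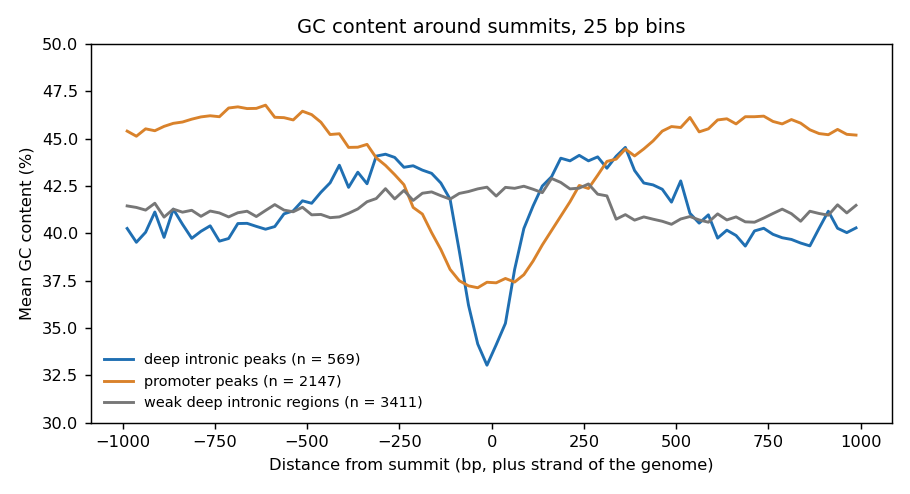
Mean GC content in percent, in bins of 25 bp, by distance from the summit for deep intronic peaks (blue, n = 569), promoter peaks (orange, n = 2147) and weak deep intronic regions (grey, n = 3411). The blue line falls to 33.0% next to the summit, and the grey line shows no dip.

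A total of 34 short motifs were searched on both strands in the same windows, and a motif was called where the interval of summit minus flank excluded 0 and all 3 replicates had the same sign. This called 5 motifs (14.7%) higher and 3 (8.82%) lower at the summit. The TATA box TATAAAA was in 47 summit windows (8.26%) and in 3.08% of the 1138 flank windows, a difference of 5.18 percentage points (interval 2.87 to 7.88). In the replicates' own regions it was in 6.48%, 8.57% and 8.54% of summit windows and in 3.90%, 3.61% and 4.38% of flank windows, and the call was made under all 11 alternative settings. It was in 7.65% of all IDR windows and 7.55% of promoter peak windows. A TATA box match in the peak of lili is shown in capitals here, read on the minus strand.
lili (chr3R:24811028-24811128): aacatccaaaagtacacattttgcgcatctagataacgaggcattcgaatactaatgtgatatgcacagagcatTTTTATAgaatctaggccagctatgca

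The site TTCNNNGAA, the core bound by STAT factors, was in 33 summit windows (5.80%), 2.90% of flank windows and 3.88% of all IDR windows. It was in 3.21% of promoter peak windows, which is 2.59 percentage points less than at deep intronic summits (interval 0.746 to 4.92). Start-proximal intronic peaks had it in 4.37% of summit and 1.71% of flank windows, and distal intergenic peaks in 3.39% and 2.75%. In the replicates' own deep intronic regions the site was in 3.98%, 3.91% and 5.0% of summit windows and in 3.02%, 2.41% and 2.81% of flank windows. The call was made under 9 of the 11 alternative settings and was lost beyond 5000 bp and with windows reaching 100 bp to either side. The peak of trx, a member of the named set, holds 1 match, in capitals.
trx (chr3R:14283854-14283954): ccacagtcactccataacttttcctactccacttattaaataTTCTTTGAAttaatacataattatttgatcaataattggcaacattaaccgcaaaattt
The core TGCATA of the insulator protein su(Hw) was in 10.9% of summit and 7.91% of flank windows (8.82% of all IDR windows), and the forkhead site GTAAACA in 3.87% and 2.02% (3.23% of all). Distal intergenic peaks had TGCATA in 13.1% of summit and 7.8% of flank windows, and start-proximal intronic peaks in 8.4% and 6.6%. The T-box site AGGTGTGA was called on 4 summit windows and no flank window, and 0.374% of all IDR windows held it. These calls were made under 6, 7 and 5 of the 11 alternative settings. Each is a match of letters and not a measured site.

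Lower at the summit were the CA repeat CACACACA, in 1.23% of summit and 5.36% of flank windows (0.989% of all IDR windows), the GAGA motif GAGAGAG, in 1.23% and 3.60% (1.23% of all), and the E-box CAGCTG, in 2.46% and 4.66% (4.62% of all). The CA repeat call was lost with flanks 1000 bp away, where the difference was −0.615 percentage points in place of −4.13. Beyond 5000 bp, with windows reaching 25 bp to either side and with flanks 1000 bp away, the GAGA and E-box calls were lost, and that of the E-box also without replicate 2, so these calls were made under 8 and 7 of the 11 alternative settings and that of the CA repeat under 10. The GC content of the windows differs in the same comparison, and its part in any of these motif shares was not tested. The Rel site GGGNNNNCC of Dorsal-type factors stood in 4.04% of the windows at summits and 6.24% of those in flanks (4.44% of all IDR windows), a difference whose interval included 0 (−4.25 to 0.127).

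Several motifs of housekeeping promoters were rarer than at promoter peaks. The DNA replication-related element TATCGATA was in 0 of 569 summit windows, which allows a share of up to 0.646%, and in 4.75% of promoter peak windows (2.89% of all IDR windows), a difference of −4.75 percentage points (interval −5.73 to −3.69). The core CGATA, which BEAF-32 binds and which is part of that element, was in 13.2% of summit windows, 10.7% of their flanks, 26.7% of promoter windows and 20.4% of all IDR windows, and it was the most frequent of the 34 motifs at deep intronic summits. The M1BP core GGTCACAC was in 1 summit window, against 2.33% of promoter windows (1.44% of all). Ohler motif 7 was in 0.527% and 6.38% (4.04% of all). The CTCF motif of insulators was in 0.879% of summit windows, 0.264% of their flanks and 1.26% of promoter windows (1.52% of all), and the interval of its difference to promoters included 0 (−1.14 to 0.847 percentage points). The low shares were not particular to deep intronic peaks. In start-proximal intronic and distal intergenic windows TATCGATA was in 0.19% and 0.85%, and the M1BP core in 0.38% and 0.42%. Ohler motif 7 was in 1.14% and 1.27% of them. The distance rule leaves out starts, where these promoter motifs are known to lie.

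**Figure D4:**
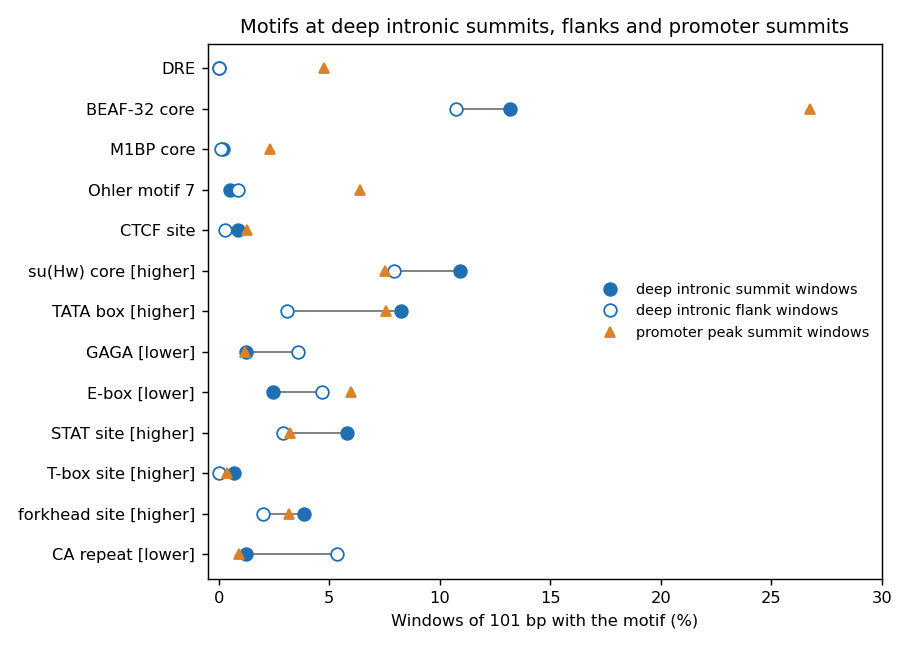
Share of windows, reaching 50 bp to either side, in percent, that hold each motif at deep intronic summits (filled circles), in their flanks (open circles) and at promoter peak summits (triangles), with calls of summit against flank in brackets. The TATA box stands at 8.26% at the summits and 3.08% in the flanks, and BEAF-32 core reaches 26.7% at promoters.

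Among words of 6 bases present in at least 2% of summit windows, CTATTA was in 60 windows (10.5%), against 2.55% of flank windows. In the replicates' own regions it was in 8.39%, 9.17% and 7.71% of summit windows and in 2.50%, 3.31% and 3.33% of flank windows. It stands in the CG32486 sequence above, beside its first capitals. The word TAAGAA was in 12.1% and 4.13%. Among words of 8 bases CTATTTAA, which is also in the CG32486 window, was in 3.34% and 0.264%, and CACTGAGA in 2.28% and 0.176%.  Words were ranked by ratio with no test, and CTATTA was in 6.66% of promoter peak windows and 4.81% of weak deep intronic windows.

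Most of the peaks sat in first introns. The summit was in the first intron of a host transcript for 360 of 569 peaks (63.3%, interval 59.2 to 67.2%), against 48.7% of the 3411 weak deep intronic regions, a difference of 14.6 percentage points (interval 10.2 to 18.8). First introns make up 37.1% of deep intronic sequence. In the replicates' own deep intronic top regions the share was 59.5%, 63.0% and 64.8%. The median distance to a start, 4986 bp, was shorter than the 7141 bp of the weak regions, so peaks stood nearer to starts even beyond 2000 bp. The part of this distance in the first intron difference was not tested. Beyond 5000 bp that difference was 13.7 percentage points. The exon-free stretch around a summit had a median length of 10419 bp, and 9 summits (1.58%) lay within 200 bp of an exon, against 6.74% of weak regions.

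The X chromosome held 139 of the peaks (24.4%, interval 21.0 to 28.2%), against 16.7% of weak deep intronic regions, a difference of 7.75 percentage points (interval 4.16 to 11.6). It has 18.0% of the deep intronic sequence. The share on X was 25%, 23.2% and 24.2% in the strong and 16.7%, 15.2% and 19.6% in the weak deep intronic regions of replicates 1, 2 and 3, higher among the strong in 3 of 3 replicates (difference 6.96 ± 2.06 percentage points, SD, n = 3, two-sided exact sign-flip permutation p = 0.25, the smallest possible). Promoter peaks had 16.5% on X. In the upper 50% of the IDR set by signal the difference was 15.3 percentage points. The arms 2L, 2R, 3L and 3R held 100, 97, 103 and 130 peaks, and chromosomes 4 and Y held 0, which allows a share of up to 0.646%.

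Of the 2375 protein-coding genes with at least 1 kb of deep intronic sequence, 366 (15.4%) held a deep intronic peak, and 1 further host had less than 1 kb. Among all hosts 234 held 1 peak, 80 held 2, 32 held 3 and 21 held 4 or more. These 21 genes held 98 different peaks, of which 4 lie in Hr3 and CG12912 alike. Of the 21, 7 also had a promoter peak, as did 40.7% of the 366 hosts and 20.3% of the genes without a deep intronic peak. Of the 569 summits, 130 (22.8%) had another within 2000 bp, and the median distance to the nearest one was 14.78 kb. The 130 include the 16 peaks that overlap another. No share of another class stands beside this count, so it does not show whether neighbours were frequent.

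The host with the most peaks was tara. Taranis (tara), a regulator of the cell cycle and a trithorax-group protein, held 8 peaks over 23.4 kb of 3R, with signals of 100.9 to 195, and 3 of the 8 were in all 3 top lists. The nuclear receptor gene Hr4, of the ecdysone cascade, held 7 peaks over 39.9 kb of X, with signals of 117 to 478, and 5 of them were in all top lists. Scribbler (sbb), a nuclear corepressor, also held 7, with signals of 91.4 to 241 and 4 in all top lists. Raf held 6 within 8.74 kb, with signals of 735, 403, 336, 150, 124 and 92.0, the shortest span among the 6 hosts with 6 or more peaks, and 5 of them were in all top lists. The zinc finger factor Schnurri (shn) of the Dpp pathway held 6, but 2 of these overlap and correspond to the same region in each replicate.

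The Smad cofactor gene Snoo held 5 peaks with signals of 93.3 to 216, and the Ets factor gene pnt, which acts below the EGF receptor, held 5 with signals of 88.6 to 189. Hosts with 4 peaks were Hr3 with the overlapping CG12912 (the same 4 peaks), CHES-1-like, gpp, simj, CG32264, kirre, mew, Pdp1, CG5151, ush, crp and wts, and CG12535 held 6. CHES-1-like had the most for its length, 508 per Mb in 7.87 kb, with signals of 539, 263, 218 and 176, and all 4 peaks were in all top lists. In simj, which encodes the p66 subunit of NuRD, the peaks of signal 304 and 254 lay side by side and matched 1 region in replicates 1 and 2. Of the 4 Pdp1 peaks, 2 overlap and correspond to the same region in each replicate. In wts, the kinase of the Hippo pathway, none of the 4 peaks (signals 149, 120, 90.3 and 88.1) was in all 3 top lists.

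**Figure D5:**
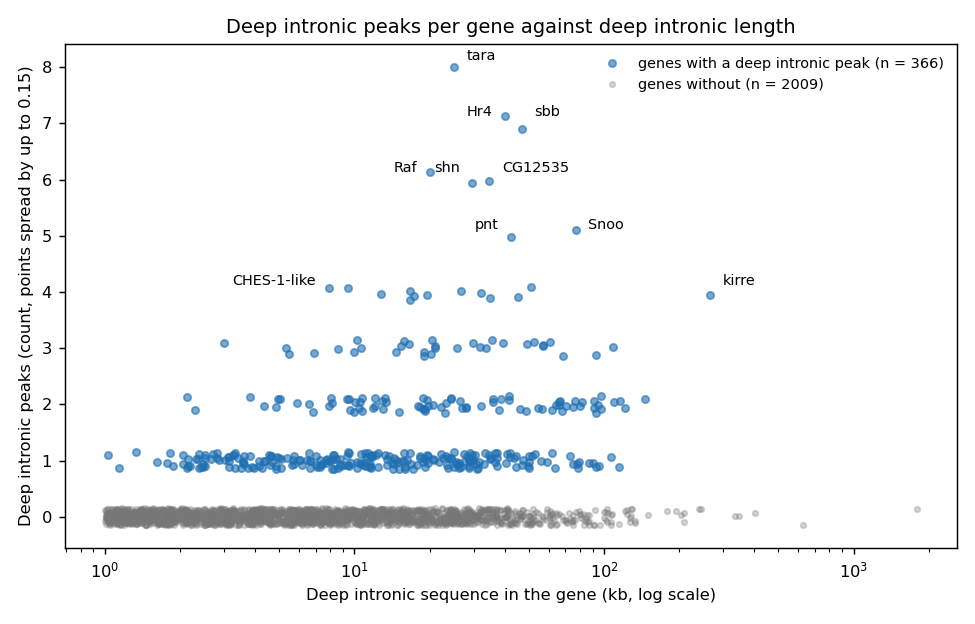
Deep intronic peaks per gene against the deep intronic sequence of the gene in kb (log scale), for the 366 genes with a peak (blue) and the 2009 without (grey). The gene tara holds 8 peaks, Hr4 and sbb hold 7 each, and the 5 genes with the longest deep intronic sequence hold none.

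Gene lists were read against the 15.4% of all genes and 14.7 peaks per Mb, counted with a peak in overlapping genes counted for each. They were not tested, since peaks cluster and genes differ in length, and the lists were chosen with results known. Weak regions numbered 87.7 per Mb over all genes, and they were more frequent in several of the lists with many peaks; their part in the counts was not tested. Several lists of signalling genes stood above the levels of all genes. Those levels vary with length, and the lists were not matched for it. Genes with at least 50 kb of deep intronic sequence had 5.82 peaks per Mb and shorter ones 21.0. Genes with 10 to 20 kb had 24.0 per Mb, and 21.45% of them were hosts. Of 10 genes of Dpp and activin signalling with deep intronic sequence, 5 were hosts, with 15 peaks and 108 per Mb (weak regions 122 per Mb): Dad, shn, sog, an extracellular antagonist of Dpp, cv-2, which binds Dpp-type ligands, and the ligand gene dpp itself. Their strongest peaks had signals of 396, 232, 185, 160 and 124. Of 15 EGFR, Ras and MAPK genes 7 were hosts (74.1 per Mb, weak regions 124 per Mb), in order of signal Raf, aos, S, which helps to export EGFR ligands, the Ets repressor gene aop, the JNK phosphatase gene puc, pnt and the ligand gene vn. Of 7 insulin and TOR genes 4 were hosts (52.3 per Mb, weak regions 200.4 per Mb), among them the receptor gene InR, with 2 peaks and a strongest signal of 209, and REPTOR, a transcription factor held back by TORC1, with a signal of 289.

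Nuclear receptor and ecdysone genes had 9 hosts of 19 and 22 peaks (39.96 per Mb, weak regions 145 per Mb). Beside Hr3 and Hr4 these included Eip63E, with 1 peak of signal 313, the ecdysone receptor gene EcR, with 1 of 243, Eip75B with 3 and ftz-f1 with 3 of at most 106. Polycomb and trithorax genes had 4 hosts of 10 (79.9 per Mb, weak regions 159.9 per Mb), which were trx, osa (231), Psc (172) and kis (162). Wnt genes had 5 of 15 (23.8 per Mb, weak regions 108 per Mb), led by the glypican gene dlp with a signal of 245 and the co-receptor gene arr with 170. Their median deep intronic length was 15.7 kb, and all genes with 10 to 20 kb had 24.0 peaks per Mb. Notch genes had 2 of 8 (19.44 per Mb, weak regions 97.18 per Mb), the coactivator gene mam (319) and N, the receptor (212). Hippo genes had 3 of 9 (55.4 per Mb, weak regions 134 per Mb), which were kibra (163), wts and ex (97.6).

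For the Toll and Dorsal pathway, to which Dip3 is linked by its known partner, 2 of 5 genes were hosts (interval 5.27 to 85.3%). They were the Rel factor gene Dif (126) and cact (118), which encodes the inhibitor of Dorsal. This list had 24.6 peaks and 135.5 weak regions per Mb. Its median deep intronic length was 8.76 kb, and all genes with 5 to 10 kb had 28.4 peaks per Mb. JAK and STAT genes had 2 of 6 (19.46 per Mb, weak regions 87.55 per Mb), Ptp61F (163) and Socs36E (131), both negative regulators. GATA factor genes and cofactors had 1 of 5, ush, with 4 peaks of at most 198. Zinc finger and BTB regulators had 10 of 22 at 16.4 per Mb, close to the level of all genes, led by luna (262), mamo (246), grh (238) and ken (187). Regulators of the cytoskeleton and RNA had 7 of 17 at 15.5 per Mb, led by mbl, shep (234), pum (140) and Rbfox1 (134).

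Genes of neurons and muscle had fewer peaks per Mb than all genes. These lists were not matched by length either. Genes with 20 to 50 kb of deep intronic sequence had 15.7 peaks per Mb, and genes with at least 50 kb had 5.82. The axon guidance list had 1.558 Mb of such sequence, of which kirre had 266.7 kb and Sema1a 109.9 kb. In the muscle list kirre had 266.7 kb of 0.564 Mb and 4 of the 6 peaks. The part of length in the densities of these lists was not tested. None of 20 ion channel and synapse genes held a peak in 0.789 Mb (0 of 20, which allows a share of up to 16.8%), although the same introns held 50 weak regions, 63.4 per Mb against 87.7 for all genes. Axon guidance and adhesion genes had 8 hosts of 27 but 8.34 peaks and 88.5 weak regions per Mb, led by kirre, an adhesion protein of myoblast fusion (290), Fas3 (183), caps (114) and Sema1a (114). Muscle genes had 3 of 18 (10.6 per Mb, weak regions 124 per Mb), which were kirre, how (128) and mbc (106). Hox genes had Antp (176) and Ubx (152) of 8, anteroposterior patterning genes cad (92.6) of 7, tracheal and epidermal genes bnl (110) of 6, and Hedgehog genes none of 3.

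Host genes often had a promoter peak as well. A peak lay within 500 bp of a start of 149 of 366 hosts (40.7%), against 408 of 2009 genes without a deep intronic peak (20.3%), a difference of 20.4 percentage points (interval 15.2 to 25.8). Hosts have more starts, 2.38 on average against 1.90. Among genes with a single start the shares were 34.1% of hosts and 13.6% of others, a difference of 20.5 (interval 12.7 to 29.2). In genes with more than 50 kb of deep intronic sequence they were 35.3% and 11.0%. The nearest start belonged to a host gene for 435 of the 569 peaks (76.5%).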

How the data were processed

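Per the file headers (the descriptions deposited with the lists), the authors called regions for each replicate and on pooled alignments with a shared control, and passed them through IDR. The aligner, the caller and the cut-off for IDR were not given in the sources used here. Each deposited region carries a signal value, whose scale differs between lists and which served to describe and rank regions within a list, and a −log10 q value from the authors' caller. The control and the dm3 lists were not used here.

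Summits were placed on dm6 with Ensembl release 115 (BDGP6 patch 54, 19275 protein-coding starts), and sequence came from the RefSeq assembly of Release 6. Positions count from 1. Peaks matched replicate regions by an overlap of at least 1 bp. Weak regions were the lower 50% of the pooled list that overlap no IDR peak. Replicates were compared by exact sign-flip tests, two-sided, and shares by Clopper-Pearson and Newcombe 95% intervals, with Python 3.11.15, NumPy 2.4.6, pandas 2.3.3 and SciPy 1.17.1. The motif search was tested on simulated sequence with planted sites. Its summits and flanks were drawn with the same base composition, unlike the real windows. The Newcombe interval, the sign-flip test and the overlap of regions were checked on known answers.

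Named peaks were the 25 strongest present in all top lists, hosts with at least 4 peaks, up to 4 members of each list by their strongest signal and peaks next to the threshold; other genes were named after their values were seen. The members, the 20 gene lists (372 entries, of which 4 had no match) and the motifs were chosen with earlier results of these data known. Alternatives were other distances, exon definitions, overlaps, numbers of regions, windows, flanks and peak sets, and leaving out each replicate.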

Additional observations from a re-analysis of the deposited data

How the results depend on the processing

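The lower share of deep intronic summits among strong regions, their lower rank than promoter peaks, the first intron difference, the promoter peaks of hosts, the GC dip and the X share kept their direction under every alternative tried; the last 3 and their alternatives, like the presence in replicate 3 and the density by length, were added after the data had been seen. The share of peaks in all 3 top lists was 47.9% beyond 5000 bp, 90.9% in the upper 50% by signal, 40.6% with a reciprocal overlap of 50% and 94.7% in the whole lists, and ran from 59.1% to 76.6% when 1 replicate's list was not asked for. The count of called motifs was 8, and it was 3 beyond 5000 bp, 5 with windows of 51 bp and 2 with flanks at 1000 bp. The share of genes that are hosts was 17.3% beyond 1000 bp, 8.21% in the upper 50% by signal and 10.3% to 12.7% when peaks had to be in the other 2 top lists; these sets hold other numbers of peaks. The density in long genes relative to shorter ones was 0.277 per Mb and 0.455 per 100 weak regions. The presence in replicate 3 was 22.2 percentage points below promoter peaks beyond 5000 bp, a difference of −22.2 in place of −14.6. The causes of these changes were not tested. No paired analysis was possible because the study has 1 group, so no samples pair across conditions; differences within each replicate are those of the sign-flip tests. Depth is unknown, so a gene or motif without a peak was not detected in these lists and is not shown to be unbound, and 3 replicates cannot give a sign-flip p under 0.25.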

Other observations

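Peaks were thin per Mb in the longest genes. Genes with at least 50 kb of deep intronic sequence (160 genes, 16.8 Mb) held 98 peaks, 5.82 per Mb, against 21.0 per Mb in the 2215 shorter ones. From the shortest genes, with 1 to 5 kb, to the longest, with over 100 kb, the density was 30.3, 28.4, 24.0, 15.7, 9.90 and 1.96 per Mb. Weak regions were also fewer in long genes, with 63.8 per Mb against 105 per Mb in shorter ones, and per 100 weak regions there were 9.12 peaks in long and 20.02 in shorter genes. Of the 160 long genes 109 (68.1%) held no deep intronic peak, and 94 of these held weak regions. Counted per gene, however, hosts made up 36.4% of genes with 50 to 100 kb and 19.05% of those with over 100 kb. They made up 6.79% of genes with 1 to 5 kb and 15.4% of all genes with at least 1 kb. The longest genes without a peak, Myo81F and Pzl, with 1793 and 630 kb, held 0 weak regions each. So did DIP-lambda, CG17684 and the Y-linked Ppr-Y, WDY and kl-3, which makes 7 of the 15 longest without a peak. By contrast, Rbp6, an RNA-binding protein gene, held 19 weak regions and no peak, bru3, of the same kind, held 15, and Ten-a, a teneurin gene, held 11. These genes were chosen by length, the first 15 of those without a peak.

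A few peaks lay at starts of non-coding RNAs inside introns, which the rule does not leave out. The summit was within 500 bp of such a start for 12 of 569 peaks (2.11%), against 0.557% of weak deep intronic regions, a difference of 1.55 percentage points (interval 0.601 to 3.11). The hosts were mbl (373), beat-Ib with 2 peaks (315 and 104), CG14434 with 2 (265 and 226), osa (231), AdamTS-A at a snoRNA (225), Hipk (200.6), puc (195), ena (166), dlp (107) and ana (90.9), with the signal in brackets. The 2 CG14434 peaks overlap at the same long non-coding RNA and correspond to the same region in each replicate, so that site is counted with 2 of the 12 peaks. A summit in Tis11, which encodes a protein of mRNA decay, lay 316 bp from the start of the microRNA gene mir-9377.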
